A study of Mus musculus with 15 samples.

Results

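A set of 9 genes that mark fetal intestinal spheroids and regenerating epithelium, Anxa1, Anxa3, Ly6a, Msln, Gja1, Clu, Spp1, Efemp1 and Il33 was followed in mouse intestinal organoids. These 9 of the 43629 genes in the count table were picked by name and chosen on their level in Apc against WT, which was known when they were picked. Organoids are small clusters of intestinal epithelium grown in gel from isolated crypts, here from proximal small intestine of mice on a mixed C57B6/129 background. PolyA RNA was sequenced from 15 cultures, of which 13 could be placed in a group. WT held 5 libraries in ENR medium, which supplies EGF, Noggin and R-spondin. Of these, 4 were APC flox/flox before deletion, numbered 1, 2, 5 and 6, and 1 was Dox naive, meaning that the inducible Cas9 of that line had not been switched on. Apc held 4 libraries with the genotype Apc delta/delta, also numbered 1, 2, 5 and 6, in EN medium, which lacks R-spondin. P-Rspo3 held 4 libraries, called 15d, 4d, M and F, whose cultures carry a Ptprk-Rspo3 rearrangement made by Cas9 and also grew in EN medium. P-Rspo3 cultures were polyclonal and had been selected by growth without R-spondin. Against WT, the medium and the genotype therefore cannot be told apart, whereas Apc and P-Rspo3 shared a medium.

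Organoids from the fetal gut grow as round, unbudded spheroids and express a set of genes that the adult crypt lacks. Adult epithelium can take up the same set again during repair after injury, where Yap, an effector of the Hippo pathway, is known to drive part of it. Apc holds beta-catenin in check, so that its loss activates Wnt target genes without R-spondin. The 9 genes cover several roles. Anxa1 and Anxa3 are annexins, which bind phospholipids in a calcium-dependent way. Ly6a, also known as Sca-1, and Msln, or mesothelin, are anchored to the cell surface by a lipid. Gja1 encodes the gap junction protein connexin 43. Clu, Spp1, Efemp1 and Il33 encode a secreted chaperone, the matrix ligand osteopontin, the matrix protein fibulin-3 and an alarmin cytokine.

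Total counts were 28902729 to 35528495 over the 13 grouped libraries. Rspo3 had 539 to 1079 counts in P-Rspo3, at most 1 in WT and 7 to 57 in Apc. Apc had 9265 to 10953 counts in the Apc libraries and 4046 to 6810 in WT. A count over the whole gene does not resolve the deleted exons, so it does not check the Apc label. Epithelial identity was checked with 8 intestinal epithelial markers, whose summed FPKM (fragments per kilobase of transcript, scaled to the reads of the library) was 2201 to 2527 in WT, 2053 to 2427 in P-Rspo3 and 2121 to 2552 in Apc. In Apc, Krt18 rose among these and Vil1 and Cdx1 fell, with 66.3 ± 11.8 FPKM (SD, n = 5) for Cdx1 in WT and 4.44 ± 1.17 (SD, n = 4) in Apc.

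On GRCm38, Anxa1 lies on the minus strand at chr19:20373428-20390944 and Il33 on the plus strand at chr19:29925114-29960718. Anxa3 and Spp1 both lie on the plus strand of chromosome 5, at chr5:96793339-96845966 and chr5:104435118-104441050. Ly6a is at chr15:74994877-74998031 and Msln at chr17:25748613-25754378, both on the minus strand. Gja1 (chr10:56377330-56402513), Clu (chr14:65968483-65981547) and Efemp1 (chr11:28853204-28926743) are on the plus strand. Annotated genes overlap Anxa1 (1500015L24Rik, opposite strand), Anxa3 (Gm42603) and Spp1 (Gm42793), and Ly6a belongs to a family of similar genes, so counts of these 4 genes could be split or shared.

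The 250 bases before the RefSeq start sites of the genes (GRCm38.p6) were searched for motifs of factors tied to the regenerative state and to Wnt. RefSeq gave 7 such windows for 5 of the genes, Anxa1, Gja1, Efemp1, Il33 with 2 starts and Spp1 with 2 starts. The Anxa1 window and the windows of the second Il33 and Spp1 starts lie wholly inside the gene spans given above. The motifs were GGAATG for TEAD factors, the DNA-binding partners of Yap, TGANTCA for AP-1 and ATCAAAG for TCF/LEF, each on both strands. TEAD letters were found in 3 windows, those of Anxa1 and both of Il33, and AP-1 letters in 2, always in different windows. TCF/LEF letters were found in 0 of the 7, and both Spp1 windows held none of the motifs. Over 32851 promoters of the same length, 12.64% held the TEAD letters, 6.749% the AP-1 letters and 3.205% the TCF/LEF letters. The 100 bases around each match are shown, read 5′ to 3′ on the strand of the gene, with the match in capitals. The matches begin 19 bases before the start of Gja1 and 154 before that of Efemp1 (AP-1), and 236 before the start of Anxa1 and 131 and 107 before the first and the second start of Il33 (TEAD).
Gja1, chr10:56377200-56377299, plus strand: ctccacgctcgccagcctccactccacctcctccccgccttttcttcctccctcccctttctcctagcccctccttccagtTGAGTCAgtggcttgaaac
Efemp1, chr11:28853004-28853103, plus strand: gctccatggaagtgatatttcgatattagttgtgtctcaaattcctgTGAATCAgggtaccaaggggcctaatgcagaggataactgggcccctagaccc
Anxa1, chr19:20390822-20390921, minus strand: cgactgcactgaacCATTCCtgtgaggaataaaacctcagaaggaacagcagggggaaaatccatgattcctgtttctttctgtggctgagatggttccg
Il33, chr19:29924935-29925034, plus strand: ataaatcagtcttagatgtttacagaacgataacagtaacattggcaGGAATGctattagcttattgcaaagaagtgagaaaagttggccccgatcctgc
Il33, second start, chr19:29945636-29945735, plus strand: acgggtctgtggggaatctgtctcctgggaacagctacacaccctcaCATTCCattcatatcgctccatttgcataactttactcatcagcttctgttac

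In Apc, all 9 genes had higher FPKM in each of the 4 libraries than in any WT or P-Rspo3 library, whereas the WT and P-Rspo3 ranges overlapped for every gene. Such a separation in FPKM was held by 33% (5520) of the 16749 genes tested in Apc against WT, to which all of the 9 but Spp1 belong. Since the genes were chosen for this difference, it is a description and no test is read from it. In bulk RNA, more cells that express a gene and more RNA per cell cannot be told apart.

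**Figure D1:**
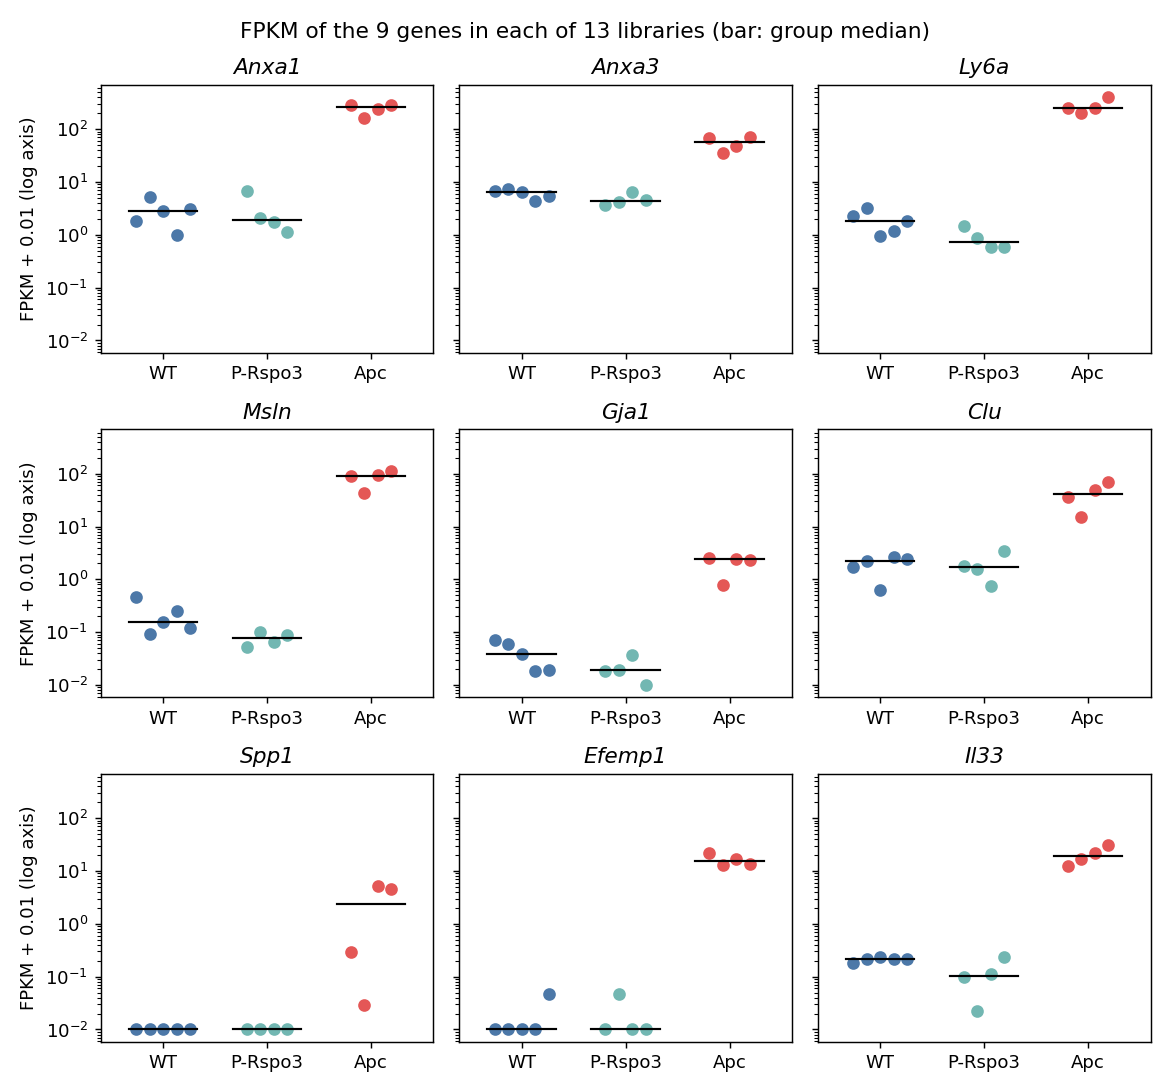
FPKM of the 9 genes on a log axis, with 0.01 added so that values of 0 can be drawn. Each point is 1 library of WT (5), P-Rspo3 (4) or Apc (4) and each bar is the group median; the Apc points stand above all others in every panel, and the Spp1 points of Apc spread most widely.

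Both annexins were detected in every library. Anxa1, which limits inflammation through formyl peptide receptors, had 293, 161.9, 244.2 and 282.3 FPKM in Apc replicates 1, 2, 5 and 6. In WT it had 1.79, 5.09, 2.83 and 0.967 FPKM in replicates 1, 2, 5 and 6 and 3.05 in the naive culture. In P-Rspo3 it had 6.63, 2.05, 1.74 and 1.12 FPKM in 15d, 4d, M and F. The group means were thus 245 ± 59.5 (SD, n = 4) in Apc, 2.75 ± 1.56 (SD, n = 5) in WT and 2.89 ± 2.53 (SD, n = 4) in P-Rspo3. Anxa1 FPKM did not follow its counts below the Apc range, since FPKM per CPM (counts scaled to library size) varied 7.41-fold between libraries, from 0.504 in P-Rspo3 4d to 3.74 in WT replicate 5. WT replicate 5, the third highest of the 5 WT libraries in FPKM, had the fewest Anxa1 counts, 22 against 51 to 96. Over libraries with at least 10 counts, the same ratio varied by at most 1.29-fold for the other genes except Il33, where it varied 2.26-fold. Only 8 libraries had that many counts for Il33 and Msln, 4 for Gja1 and Efemp1 and 3 for Spp1. Wider differences below 10 counts are therefore not covered. Anxa3, a second annexin, was the most abundant of the 9 in WT. It had 66.8, 35.8, 47.3 and 70.1 FPKM in Apc replicates 1, 2, 5 and 6, against 4.33 to 7.37 in WT (median 6.38) and 3.65, 4.11, 6.50 and 4.47 in P-Rspo3 15d, 4d, M and F. With an Apc mean 9.07 times that of WT, it had the smallest ratio of the 8 genes with a WT mean above 0.

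The surface proteins differed widely in their WT level. Ly6a, a marker of fetal-like cells in injured adult epithelium, had 254, 204, 254 and 406 FPKM in Apc replicates 1, 2, 5 and 6. It had 2.26, 3.19, 0.931, 1.18 and 1.82 FPKM in WT replicates 1, 2, 5, 6 and naive, and 1.45, 0.846, 0.584 and 0.575 in P-Rspo3 15d, 4d, M and F. The Apc mean of 279 ± 87.5 (SD, n = 4) was the highest of the 9 genes, though its range overlapped that of Anxa1. Msln, which in healthy tissue marks the mesothelium lining body cavities, had 89.0, 43.7, 94.5 and 114.0 FPKM in Apc replicates 1, 2, 5 and 6. In WT it had 0.0812 to 0.454 FPKM (median 0.149), the highest in replicate 1, and in P-Rspo3 0.0417 to 0.0903. Of the other mesothelial markers, Wt1, Rspo1 and Gpm6a had at most 3 counts in every library of all 3 groups. The summed FPKM of 6 mesothelial markers was 5.47 to 7.78 in Apc, 8.77 to 13.8 in WT and 3.29 to 15.04 in P-Rspo3, mostly from Upk3b. Upk3b had 366 to 656 counts in Apc and 742 to 1041 in WT, and was called lower in Apc (-1.26, SE 0.21, edgeR). Upk1b had 27 to 95 counts in Apc and 37 to 84 in WT and was not called, and Lrrn4 was not tested. Gja1 stayed at a low level also in Apc, with 2.55, 0.764, 2.38 and 2.36 FPKM from 312, 82, 275 and 302 counts in replicates 1, 2, 5 and 6. It had 1 to 7 counts in the WT libraries and 0 to 3 in those of P-Rspo3.

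Among the secreted proteins, Clu was the only one at more than 1 FPKM in most WT libraries. Clu, which marks the rare revival stem cells that rebuild the damaged crypt, had 35.5, 15.01, 48.4 and 69.3 FPKM in Apc replicates 1, 2, 5 and 6. It had 1.72, 2.22, 0.611, 2.68 and 2.46 FPKM in WT replicates 1, 2, 5, 6 and naive and 1.78, 1.59, 0.746 and 3.42 in P-Rspo3 15d, 4d, M and F. Il33, a cytokine released from damaged cells, had 12.4, 16.9, 22.0 and 30.9 FPKM in Apc replicates 1, 2, 5 and 6. Its WT libraries lay between 0.171 and 0.226 FPKM (3 to 19 counts) and its P-Rspo3 libraries between 0.0119 and 0.228 (1 to 9 counts). The narrow WT range in FPKM did not follow the counts, with 3 counts at 0.171 FPKM in replicate 1 and 19 at 0.205 in the naive culture.

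Efemp1 and Spp1 were close to or at 0 outside Apc. Efemp1 had 1399, 702, 997 and 932 counts in Apc replicates 1, 2, 5 and 6, or 16.4 ± 4.15 FPKM (SD, n = 4). Over the 5 WT libraries together it had 1 count, in the naive culture, and over the 4 P-Rspo3 libraries 1 count, in 4d. Scaled for library size, the Apc sum was 3871 times that of WT, with a 95% counting interval of 694.3 to 1.529e+05, and 3119 times that of P-Rspo3 (559.5 to 1.232e+05). Spp1, which binds Cd44 and integrins, had 17, 1, 304 and 286 counts in Apc replicates 1, 2, 5 and 6, or 0.279, 0.0186, 5.20 and 4.52 FPKM. It had 0 counts in all 9 WT and P-Rspo3 libraries. Against a floor of 3 counts over the group, its Apc level was at least 194.7-fold higher than WT and at least 156.9-fold higher than P-Rspo3. These intervals and floors cover counting error only, and Spp1 in Apc replicate 2 was itself within the floor.

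In the fits over all genes, a gene was called when its adjusted p was under 0.05 and its level differed by more than 1 on the log2 scale. In Apc against WT, 12.2% of 16749 genes tested were called higher and 14.1% lower. Spp1 did not reach the filter of 0.1 FPKM in 4 libraries, and the other 8 genes were called higher. Gja1 and Efemp1, at most 0.0617 and 0.0378 FPKM in WT, passed that filter only through the Apc libraries. Their being tested and called thus followed from the high level in Apc. Their log2 fold changes (edgeR) were 6.93 (SE 0.30) for Anxa1, 2.90 (SE 0.22) for Anxa3, 6.93 (SE 0.31) for Ly6a and 8.30 (SE 0.42) for Msln. They were 5.68 (SE 0.53) for Gja1, 4.21 (SE 0.44) for Clu and 6.76 (SE 0.40) for Il33, and Efemp1 is given as a ratio of counts above. In Apc against P-Rspo3, which shares the Apc libraries but compares cultures in the same medium, 13.4% of 16456 genes were called higher and 13.3% lower. The same 8 genes were called higher, with log2 fold changes of 5.95 for Anxa1, 3.29 for Anxa3, 7.96 for Ly6a, 9.94 for Msln, 7.08 for Gja1, 4.27 for Clu and 7.77 for Il33. Gja1, with at most 3 counts in each P-Rspo3 library, and Msln, with 5 to 9, have fitted values that depend on few counts. Gja1, Efemp1 and Msln were under 0.1 FPKM in all P-Rspo3 libraries, and Il33 was in 15d and 4d. In that comparison these genes thus passed the filter only through the Apc libraries.

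P-Rspo3 against WT was not the comparison used to choose the genes, but it shares the WT libraries with that comparison. It is thus not independent of the choice, and none of the 9 was called in it. Here 6 of the 9 genes passed the filter on low values, and Gja1, Spp1 and Efemp1 did not. By edgeR, 0 of the 6 were called, 2 of them with an unadjusted p under 0.05, and DESeq2 and limma called 0 as well. Over all 15992 genes tested, 0.00625% (1 gene) was called higher and 0% lower, with 2159 genes at an unadjusted p under 0.05. With so few calls over all genes, 0 among 6 members cannot show whether they differ from other genes. DESeq2 called 55 genes higher and 173 lower.

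Anxa1 had the only positive fold change of the 6, with a log2 value of 0.98 (SE 0.44, adjusted p = 0.371, edgeR). P-Rspo3 15d was high, with 223 counts against 57 to 121 in the other P-Rspo3 libraries and 22 to 96 in WT. The value was 0.55 (SE 0.42) without that library and -0.033 by limma on log2(FPKM + 1), so its direction depended on the unit. Msln was lowest, with a log2 fold change of -1.59 (SE 0.54, adjusted p = 0.239), and with 5 to 9 counts in P-Rspo3 against 7 to 52 in WT the groups overlapped. Ly6a had -1.03 (SE 0.39, adjusted p = 0.287), from 15 to 36 counts against 20 to 69. Il33 had -1.01 (SE 0.59, adjusted p = 0.491), Anxa3 -0.38 (SE 0.21, adjusted p = 0.449) and Clu -0.03 (SE 0.44, adjusted p = 0.998). The spread between libraries was too wide for these values to separate a loss from no difference, and a p above the threshold does not show that the groups were alike. Leaving out the naive WT library raised the calls over all genes to 166 higher and 100 lower, with 0 among the 9 genes.

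**Figure D2:**
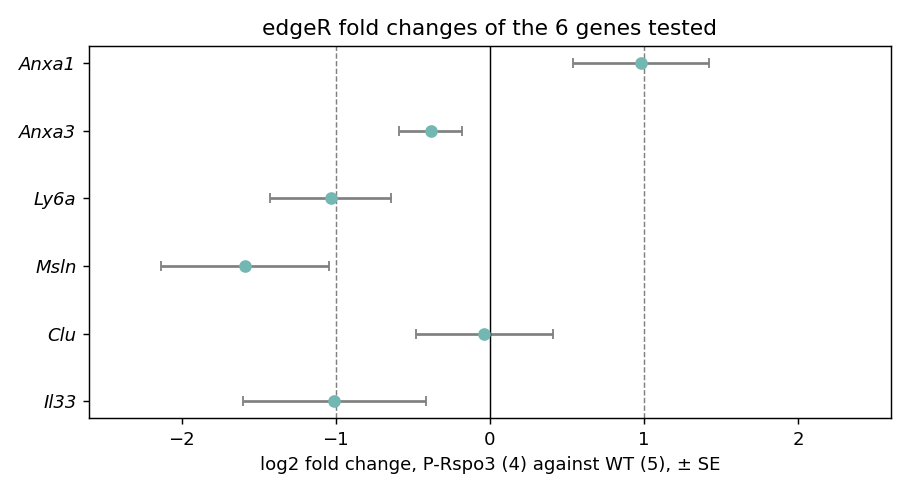
Log2 fold change of P-Rspo3 (4 libraries) against WT (5 libraries) from edgeR for the 6 genes tested, with bars of 1 SE and dashed lines at the fold threshold of 1 in either direction. Anxa1 lies at 0.98 and the other 5 at or below -0.03, and 0 of the 6 were called.

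The order of the levels was alike in WT and P-Rspo3 and another in Apc. In WT, Anxa3, Anxa1, Clu and Ly6a followed each other in mean FPKM (6.06, 2.75, 1.94 and 1.88), each with a range overlapping the next, and Ly6a stood clear of Msln (0.208). P-Rspo3 gave the same first 4 in the same order, with means of 4.68, 2.89, 1.89 and 0.863. In Apc, Ly6a and Anxa1 came first, then Msln (85.3 ± 29.8, n = 4) clear of both, and Anxa3, next at 55.0 ± 16.3 (SD, n = 4), overlapped Msln above it and Clu (42.0 ± 22.8, n = 4) below it. Il33 (20.6 ± 7.94, n = 4) and Efemp1 overlapped next, and Spp1 and Gja1 were lowest at 2.50 ± 2.74 and 2.01 ± 0.837 (SD, n = 4).

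Within the Apc group the 9 genes were not equally strong in every culture. Replicate 2 was the lowest of the 4 for 8 of the 9 genes, all but Il33, which was lowest in replicate 1. Its CPM was 0.739, 0.744 and 0.771 times the Apc mean for Anxa1, Ly6a and Efemp1, 0.531 for Msln, and 0.370 and 0.379 for Clu and Gja1. Replicate 6 was highest for Anxa3, Ly6a, Msln, Clu and Il33, at 1.27 to 1.57 times the mean. Among the 2048 genes called higher in Apc, replicate 2 was lowest for 29% and replicate 6 highest for 41.4%. Clu was the most variable of the 8 called genes, with a coefficient of variation of 51.2% in CPM, and Anxa1 the least, with 20.1%, beside a median of 25.6% over the genes called higher. Spp1 fell outside this range: replicates 1 and 2 had 0.112 and 0.00746 times its mean and replicates 5 and 6 had 2.09 and 1.79 times.

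**Figure D3:**
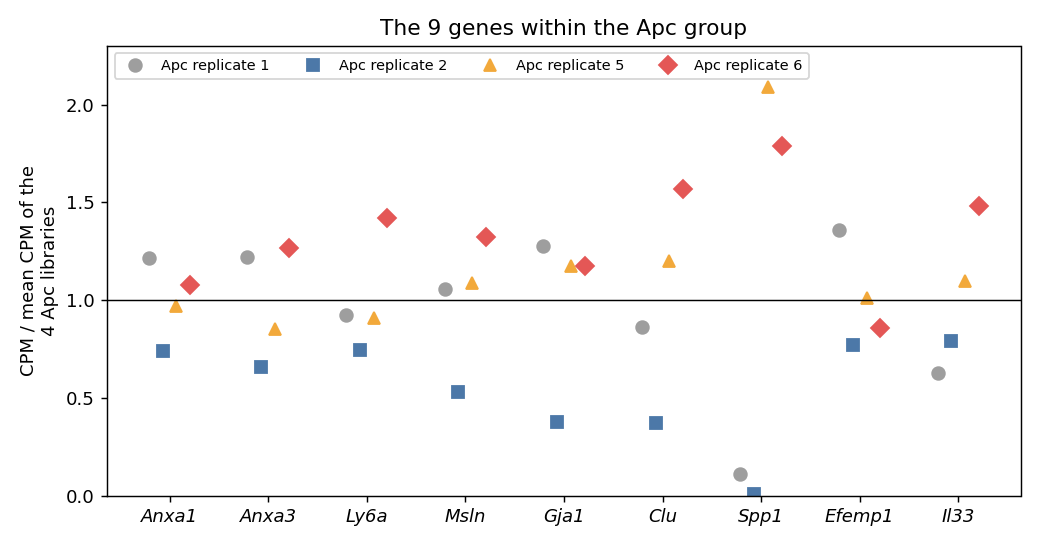
CPM of each gene in the 4 Apc libraries divided by their mean (line at 1), after TMM scaling. Replicate 2 (squares) is the lowest point for every gene except Il33, and replicate 6 (diamonds) the highest for Anxa3, Ly6a, Msln, Clu and Il33.

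A list of 21 other genes of the fetal and regenerative programme was set beside the 9. In Apc against WT, 12 of the 21 were called higher, 1 lower and 8 not, where 12.2% and 14.1% of all genes were called. The median log2 fold change of the list was 1.998 and that of all genes 0.00058. S100a6, a calcium-binding protein, rose from 71.1 ± 25.6 FPKM (SD, n = 5) to 767 ± 130 (SD, n = 4), a log2 fold change of 3.15 (SE 0.25, adjusted p = 1.6e-06, edgeR). The keratin Krt7 rose by 1.91 (SE 0.11) on the log2 scale, and the interleukin-1 antagonist Il1rn by 3.90 (SE 0.42). Anxa10, an annexin of the stomach, was the 1 gene called lower, at -3.42 (SE 0.54). The EGF-receptor ligand Areg (-0.97, SE 0.32) and Krt19 (-0.81, SE 0.14), also on the list, did not pass the fold threshold. The list held genes other than the 9 but was written with results on these samples known, so its count is no independent evidence of direction. In P-Rspo3 against WT, 16 of the 21 could be tested and 0 were called by edgeR, 3 with an unadjusted p under 0.05. Over all 15992 genes tested, edgeR called 1, and 2159 had an unadjusted p under 0.05. S100a6 had the largest value, 1.38 (SE 0.33, adjusted p = 0.134), and was the 1 gene that DESeq2 called higher.

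**Figure D4:**
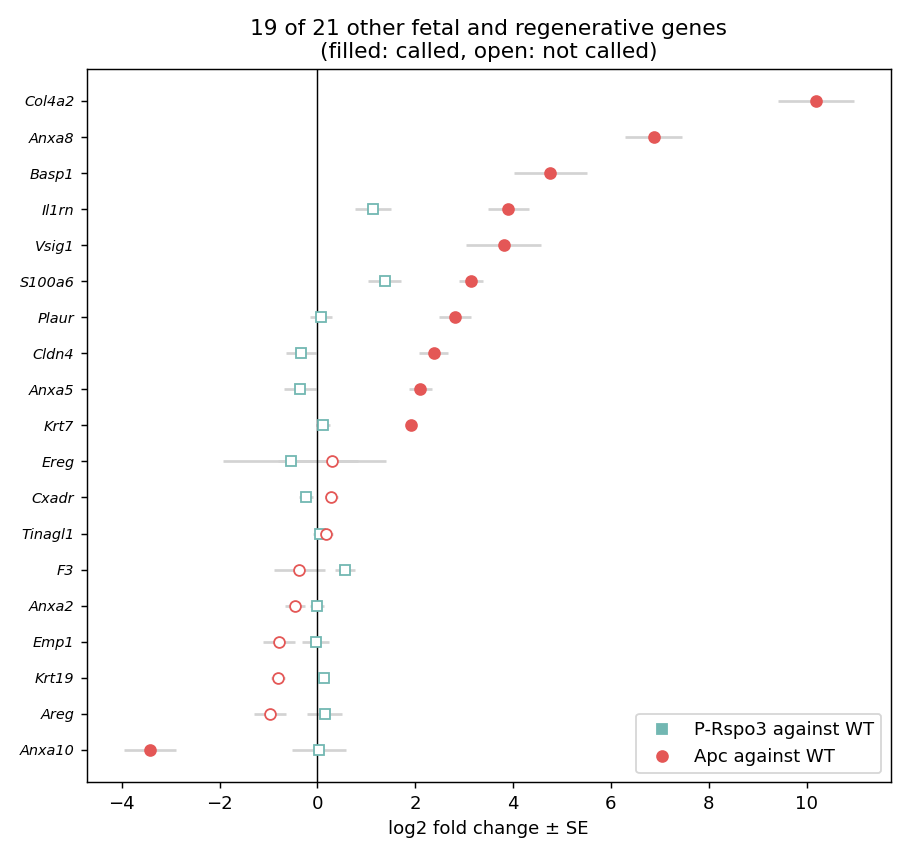
Log2 fold changes with bars of 1 SE (edgeR) of 19 of the 21 other fetal and regenerative genes in Apc against WT (circles) and, where tested, in P-Rspo3 against WT (squares), filled where called. In Apc 10 of those drawn are called higher and 1, Anxa10, lower; the values of Col4a2 and Anxa8, with at most 4 counts in each WT library, depend on the prior count of the fit.

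Most of these 21 genes had the lowest library in common with the 9. Replicate 2 was lowest of the Apc libraries for 19 of the 21 and replicate 6 highest for 18, whereas over all 16749 genes tested the shares were 20.5% and 26.7%. Replicate 2 was also lowest for 7 of 12 receptors and partners, 5 of 8 intestinal epithelial markers, 5 of 10 annexins, 5 of 13 interferon-stimulated genes, 3 of 5 connexins, 2 of 4 fibulins and 2 of 3 squamous and gastric markers. It was lowest for 2 of 11 Yap target genes, 1 of 7 genes of the Ly6 family, 1 of 3 fibroblast and 1 of 2 mesothelial markers. It was lowest for 0 of 9 adult crypt stem cell genes, 3 endothelial, 3 immune and 1 smooth muscle and glial markers. Replicate 1 was lowest for 7 of the crypt genes, 6 of the interferon-stimulated genes, 5 of the Ly6 family, 2 of the fibulins and all 3 endothelial and 3 immune markers. A low replicate 2 was thus not common to all lists. The annexin list shares Anxa2, Anxa5, Anxa8 and Anxa10 with the 21 genes. These counts were made after the order of the 9 genes had been seen and were not tested. Replicate 2 also had the fewest total counts of the Apc libraries, 30635236 against up to 35528495, and its part in this order, beyond the scaling to library size, was not tested.

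Relatives of the 9 genes did not all move with them in Apc against WT, where 12.2% of all genes tested were called higher and 14.1% lower. Of 10 other annexins tested, Anxa5, Anxa6 and Anxa8 were called higher, Anxa10 and Anxa13 lower and 5 not. Anxa13, an enterocyte annexin, fell from 289 ± 29.2 (SD, n = 5) to 15.7 ± 5.83 FPKM (SD, n = 4). Among 7 genes tested of the Ly6 family, Ly6c1, Ly6d, Ly6e and Ly6g were called higher, Lypd8 lower and 2 not, and Ly6d had 1 to 5 counts in WT and 620 to 1763 in Apc. Of 5 connexins tested, 2 were called higher, Gjb5 among them, and Gjb1, the connexin 32 gene, lower, from 25.8 ± 3.25 (SD, n = 5) to 2.90 ± 0.219 FPKM (SD, n = 4). In FPKM, Gjb1 in WT was thus above Gja1 in Apc. Of 4 fibulins tested, Hmcn1 was called higher, with 0 counts in WT and 44 to 115 in Apc, Fbln2 lower and 2 not.

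For the ligands, receptors and partners were read in the same libraries. Of 12 tested of 19 listed in Apc against WT, 5 were called higher, 1 lower and 6 not. The shares over all genes were 12.2% and 14.1%. Cd44, which binds Spp1, rose from 11.02 ± 2.21 (SD, n = 5) to 49.4 ± 7.98 FPKM (SD, n = 4). The integrin chains Itgav and Itga9 rose by 1.13 (SE 0.09) and 3.19 (SE 0.36) on the log2 scale, and Itgb5 was lower at -2.80 (SE 0.22). S100a11, a partner of Anxa1, rose by 2.95 (SE 0.16), and Lrp8, a receptor for Clu, by 1.13 (SE 0.10). Il1rl1, the receptor of Il33, had at most 3 counts in every library, and its co-receptor Il1rap had 2.14 ± 0.19 FPKM (SD, n = 4) in Apc and 1.96 ± 0.314 (SD, n = 5) in WT and was not called. Formyl peptide receptors, through which Anxa1 acts, had at most 2 counts in any library.

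Other programmes known to include or accompany these genes were read the same way. Their lists were also written with results on these samples known. Beside them, 12.2% of all genes tested were called higher and 14.1% lower in Apc against WT. Of 11 genes tested on the Yap target list, which also holds the TEAD factors Tead1 and Tead4, 10 were called higher in Apc. Among them, Ccn1 had 9.15 ± 1.33 FPKM (SD, n = 4) against 1.5 ± 0.384 (SD, n = 5) in WT. Crim1 was not called. Of 9 adult crypt stem cell genes, 6 were called higher, among them Lgr5 at 1.45 (SE 0.19), and Olfm4 lower, from 702 ± 282 (SD, n = 5) to 0.963 ± 0.796 FPKM (SD, n = 4). Of 13 interferon-stimulated genes tested, 1 (Ifit2) was called higher and 5 (Isg15, Ifit1, Ifit3, Irf7 and Oasl2) lower. In P-Rspo3 against WT, 0 of the 9 Yap targets tested, 0 of the 9 crypt genes and 0 of the 13 interferon-stimulated genes were called. Over all 15992 genes tested, 1 was called there.

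Some of the 9 genes are also expressed by stromal cells, so markers of other cell types were read beside them. Calls given here are for Apc against WT, where 12.2% of all genes tested were called higher and 14.1% lower. The summed FPKM of 10 fibroblast markers was 0.124 to 0.278 in WT, 0.247 to 1.04 in P-Rspo3 and 0.579 to 2.93 in Apc, and Col1a2, Col3a1, Dcn and Lum had at most 3 counts in every Apc library. Among these, Pdgfra and Postn were called higher in Apc and Pdgfrb lower. The 6 endothelial markers summed to 1.16 to 2.71 FPKM in WT, 0.647 to 1.46 in P-Rspo3 and 6.31 to 8.57 in Apc, mostly from Esam, and Kdr and Emcn had at most 3 counts in every library. Cdh5 had 0 counts in WT and 217 to 372 in Apc, and of the 3 endothelial markers tested Cdh5 and Esam were called higher and Pecam1 lower (-2.95, SE 0.37). The 8 immune cell markers summed to 2.12 to 3.58 FPKM in WT, 1.45 to 4.27 in P-Rspo3 and 3.91 to 10.6 in Apc, mostly from Cd68, and Ptprc, Adgre1, Cd3e, Cd79a and Tyrobp had at most 3 counts in every Apc library. Of the 3 immune markers tested, Cd68 was called higher (2.55, SE 0.31) and Csf1r (-3.92, SE 0.85) and Itgam (-2.54, SE 0.29) lower. Of 8 squamous and gastric markers, 3 (Krt5, Muc5ac and Muc6) were tested and called higher, with a summed FPKM of 0.849 to 2.17 in Apc, 0.0432 to 0.171 in WT and 0.108 to 0.123 in P-Rspo3. The 6 smooth muscle and glial markers summed to 0.512 to 0.709 FPKM in WT, 0.352 to 0.89 in P-Rspo3 and 0.86 to 1.38 in Apc. The part of other cell types in the levels of the 9 genes was not tested. By comparison, the 9 genes summed to 491 to 993 FPKM in Apc, 9.62 to 18.2 in WT and 8.74 to 13.7 in P-Rspo3.

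Genes whose pattern was most like each of the 9 were found by the root mean square difference of centred log2(FPKM + 0.1) over the 13 libraries, among 17395 genes. The closest were Tspan9 for Anxa1 (0.67), Tent5b for Anxa3 (0.25) and Rbpms for Ly6a (0.67). For Gja1 they were Kirrel and Wnt7b (both 0.25), for Il33 Ecscr (0.45) and for Clu Cd1d1 (0.48). Spp1 was closest to Dkk3 (0.45) and Efemp1 to Cdh13 (0.31).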

How the data were processed

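RNA of 15 organoid cultures was sequenced. Reads were mapped by the authors with STAR on GRCm38, and the deposited tables hold whole-number HTSeq (0.6.0) counts per gene, not normalized, and FPKM from Cufflinks (2.2.1), made by the authors. Which annotation was counted, and whether strand was used, is not given in the sources used here. The count table held 43629 genes, of which 43437 had FPKM. Symbols and positions came from GENCODE M21 and promoter sequence from RefSeq, with the promoters of 1 chromosome left out.

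Counts were tested with edgeR 4.0.16 (TMM, glmQLFit and glmQLFTest at their defaults) in R 4.3.3, in a separate fit for each pair of groups. A gene was tested where 4 or more libraries of the comparison reached 0.1 FPKM. A gene under 0.1 FPKM in a whole group could thus be tested only through the other group. Calls needed a Benjamini-Hochberg adjusted p under 0.05 over all genes tested and an absolute log2 fold change above 1. SE is the absolute log2 fold change over the square root of F. A count of 0 was bounded by 3 counts over the group, and 95% intervals of count ratios are exact and cover counting error only. The script was tested on simulated data.

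The members and the lists were chosen with earlier results of these data known. Named genes were all members, called genes of each list, the ends of its range and the genes nearest in pattern, and single genes at or near 0 in the receptor and marker lists were named after their values were seen. Alternatives were DESeq2 size factors, DESeq2 1.42.0, limma 3.58.1 on log2(FPKM + 1) and log2(FPKM + 0.1), no filter or one at 1 FPKM, a joint fit of the 3 groups, omission of each library, the adjusted p alone, the 2 libraries with conflicting labels placed by genotype, and a replicate block. No sources say which libraries came from separate animals, so p-values measure only the spread between these libraries. Libraries of a group all differed by more than counting noise, with a chi-square per gene of 20.9 or more. Ly6m and Muc16 were not analysed here, and a few listed genes are counted but not reported here by name.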

Additional observations from a re-analysis of the deposited data

Results flagged for a closer look

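Of 25 groups of libraries examined, 4 held a library far from the others of its group by Dixon's ratio of gap to range. Chance alone gives about 0.05 of groups for continuous values, a share that does not apply to groups near 0 counts. Anxa1 in P-Rspo3 15d had 6.63 FPKM (223 counts), above the other 3 P-Rspo3 libraries. Gja1 in Apc replicate 2 had 0.764 FPKM (82 counts), below the other 3 Apc libraries. Efemp1 had 0.0378 FPKM in the naive WT library and 0.0376 in P-Rspo3 4d, each from 1 count where the rest of the group had 0. In such a group the ratio is at its maximum by construction, so these flags carry no information.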

How the results depend on the processing

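In Apc against WT and against P-Rspo3, the 8 genes tested kept their call under every alternative in which they could be tested. The count of members called was 7 where the filter asked for 1 FPKM, which Gja1 does not reach, and 9 with no filter or without Apc replicate 2, where Spp1 was tested and called too. Against P-Rspo3 it was also 9 without each P-Rspo3 library. The titles share a number between WT and Apc libraries. Correlations of same-numbered deviations from the group means were 0.232, 0.149, 0.059 and -0.092, and those of other numbers ran from -0.205 to 0.203. With this overlap the values cannot settle whether the numbers are pairs. The main fits did not pair them, and pairing was an alternative. A replicate block over the 8 numbered libraries gave 8 members called higher and 0 lower, 12 and 1 of the other fetal genes, and 1979 genes higher and 2240 lower overall. The fit of the same libraries with no replicate block, added after seeing the data, gave 2 other fetal genes called lower (Anxa10 and Areg). That count was 1 to 4 over the fits that each omit 1 library, with 2 without WT replicate 6 or WT naive and 4 (Anxa10, Areg, F3 and Emp1) without Apc replicate 6, and 3 by the adjusted p alone.

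In P-Rspo3 against WT, 0 members were called under all alternatives, with edgeR, DESeq2 and limma. Among the other fetal genes, DESeq2 called 1 higher (S100a6). Anxa1 changed direction on FPKM, to -0.033 with log2(FPKM + 1) and -0.063 with log2(FPKM + 0.1). Clu, at -0.03, changed direction when 1 library was left out, to 0.01 (WT replicate 2), 0.04 (WT replicate 6), 0.09 (WT naive), 0.04 (P-Rspo3 15d), 0.03 (P-Rspo3 4d) and 0.22 (P-Rspo3 M), within -0.53 to 0.22 over all alternatives. The cause was not tested. The median of all genes lay at 0.167 and 0.277 in Apc against WT on these FPKM scales (0.160 and 0.254 against P-Rspo3). At the depth of these libraries, values resting on under 10 counts, as for Gja1 in WT and P-Rspo3 and for Msln and Il33 in P-Rspo3, cannot resolve differences between WT and P-Rspo3.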

Other observations

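The titles and genotypes of 2 libraries do not match, and both were kept out of the groups. The library titled LIPO (genotype Dox naive, ENR medium) had 41 counts of Anxa1, 258 of Anxa3, 27 of Ly6a, 123 of Clu and 0 of Rspo3, Spp1 and Efemp1. That titled NAIVE_F (genotype P-Rspo3, EN medium) had 24 counts of Anxa1, 231 of Anxa3, 36 of Ly6a, 61 of Clu, 729 of Rspo3 and 0 of Spp1 and Efemp1. In Rspo3, each library lay with the group of its genotype. NAIVE_F fell within the 539 to 1079 counts of P-Rspo3, and LIPO within the 0 to 1 of WT. For the 9 genes, LIPO lay within the WT range of FPKM for 6 and within that of P-Rspo3 for 7, and NAIVE_F within each for 6.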
